A study of Mus musculus with 4 samples.

Results

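Hepatokines are proteins that the liver releases into the blood as hormones, and 9 genes for such proteins are described here: Fgf21, Gdf15, Angptl4, Angptl6, Angptl8, Lect2, Fgl1, Fst and Inhbe. They were taken by symbol, as a named set of liver-secreted hormones, and all 9 were found among the 22079 gene identifiers of the table. FGF21 and GDF15 are stress and fasting signals, the angiopoietin-like proteins 4 and 8 hold back lipoprotein lipase, and follistatin binds and neutralises activins, a family to which the INHBE product activin E belongs. Several of these genes are classic targets of ATF4, the transcription factor of the integrated stress response, or of the fatty acid sensor PPAR-alpha.

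RNA was sequenced in primary mouse hepatocytes, the parenchymal cells of the liver, from 2 groups of C57BL/6 males aged 8 weeks. The KO group (2 libraries) carried the genotype Prom1-/-, without the membrane glycoprotein prominin 1, and the WT group (2 libraries) was wild type. Cells of both groups attached for 4 hours in medium 199 with HEPES (23 mM), the glucocorticoid dexamethasone (10 nM) and FBS (10%), and were then left without serum overnight. The sources used here do not describe how the Prom1 allele was made, and they call the 2 replicates of a group biological. The comparison asks what loss of Prom1 does to the hepatocyte transcriptome without serum.

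The values are FPKM, fragments scaled by transcript length and by the number mapped in the library, from libraries estimated at 15600000 to 17800000 fragments. Prom1 had 0.0458 FPKM in KO 2 and was listed at 0 in KO 1, against 0.571 and 1.22 FPKM in WT 1 and WT 2. Its 2 groups therefore did not overlap, although its limma adjusted p was 0.755. Hepatocyte markers other than Alb summed to 9315 and 10211 FPKM in the KO libraries and to 9030 and 10955 FPKM in the WT libraries, most of each from Apoa1. Of these markers Hnf4a, a hepatocyte transcription factor, stood at 64.9 and 59.5 FPKM in KO, against 90.4 and 95.8 FPKM in WT. Its log2 difference was -0.58 (limma adjusted p = 0.470). Tat, a tyrosine-degrading enzyme, was also lower in both KO libraries (-0.30, limma adjusted p = 0.614). Apob, an apolipoprotein gene, went the other way, at 566 and 623 FPKM in KO, against 518 and 501 FPKM in WT (0.22, limma adjusted p = 0.733). Alb itself was listed at 0 in WT 2, which in Cufflinks output can mark a failed estimate, and none of the 9 hormone genes was listed at 0 in any library. Macrophage markers summed to 427 and 494 FPKM in KO, against 374 and 369 FPKM in WT, with 8 of 8 markers in the table and none at 0. Most of that is Cd68, and the 7 others summed to 33.8 and 28.3 FPKM in KO, against 16.5 and 18.4 FPKM in WT. Sinusoidal endothelial markers (8 of 8 in the table, none at 0) summed to 66.5 and 33.8 FPKM in KO and 49.0 and 45.2 FPKM in WT. Stellate cell markers (8 of 8, none at 0) summed to 24.4 and 10.7 FPKM in KO and 13.9 and 16.2 FPKM in WT. Both were thus highest in KO 1 and lowest in KO 2. In such bulk libraries fewer cells of a type and less RNA per cell cannot be told apart.

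The 9 genes differed widely in level in these hepatocytes. Fgl1 was the most abundant, with a mean of 521 FPKM over the 4 libraries, and its lowest library lay above the highest library of every other member. Gdf15 followed at 77.2 FPKM, then Angptl4 at 52.4, Fst at 36.3, Angptl8 at 32.9, Lect2 at 13.5, Inhbe at 3.81, Angptl6 at 1.95 and Fgf21 at 0.68 FPKM. The library ranges of Angptl4 and Fst overlapped, as did those of Fst and Angptl8 and those of Inhbe and Angptl6. The other neighbours in this order had separate ranges, although Gdf15 (lowest library 68.0 FPKM) and Angptl4 (highest library 67.2 FPKM) nearly met. Levels between genes depend on the transcript models used by the authors, which the sources used here do not give.

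**Figure D1:**
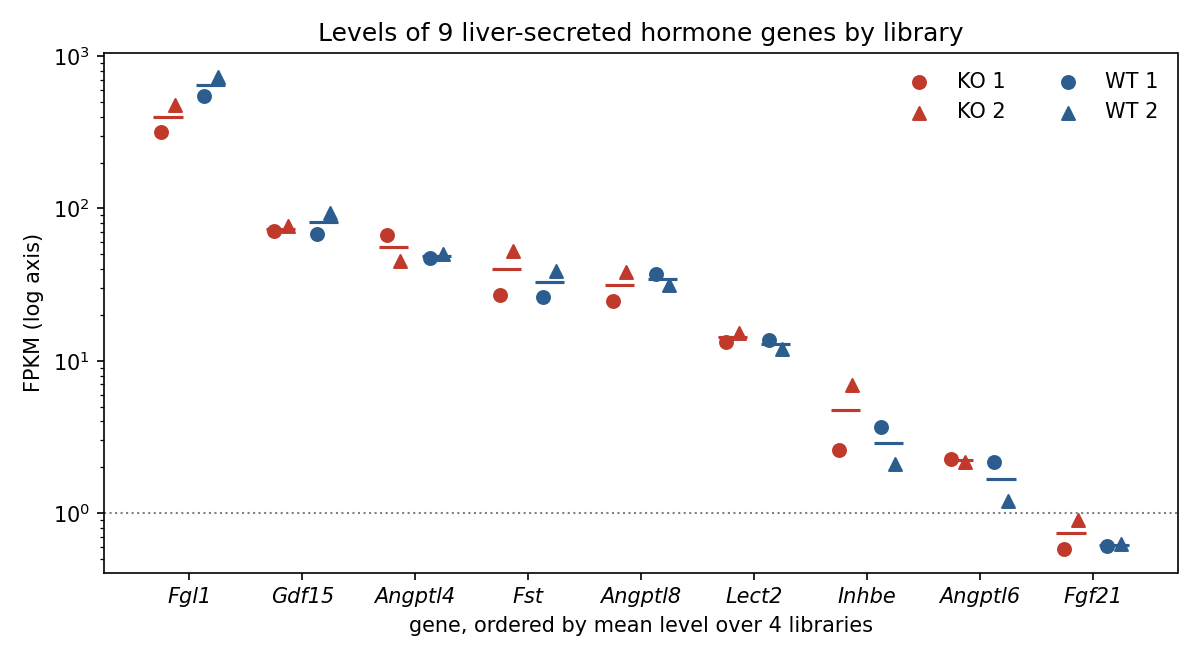
FPKM (log axis) of each gene in KO 1, KO 2, WT 1 and WT 2; each point is 1 library, the short bars are group means of 2 libraries, and the dotted line marks 1 FPKM, the mean that a gene needed to be tested. The KO points of Fgl1 (320 and 481 FPKM) lie below its WT points (551 and 734 FPKM), but KO 2 and WT 1 are closer than the libraries within either genotype.

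Across all tested genes no difference between the genotypes passed the test, and the hormone genes were no exception. The test was limma on log2(FPKM + 1), two-sided, for genes averaging 1 FPKM or more. It took in 8 of the 9 members, since Fgf21 lay under the filter. Of the 8, 0 had a Benjamini-Hochberg adjusted p under 0.05, against 0% of all 10407 genes tested. At an unadjusted p under 0.05 the count was 1 of 8, Fgl1, against 7.29% of all genes, 3.1% higher and 4.19% lower in KO. By value 5 of the 8 were higher and 3 lower in KO. Their median log2 difference was 0.16, beside a median of -0.0011 over all genes tested. The groups are said to stand apart where both values of one genotype lie above both of the other. They stood apart for 2 of the 8 members, Fgl1 (lower) and Angptl6 (higher), against 38.1% of all genes, 18.3% higher and 19.8% lower in KO. With 2 libraries a group, the smallest two-sided p of an exact permutation test is 0.333, so no single gene could pass one.

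**Figure D2:**
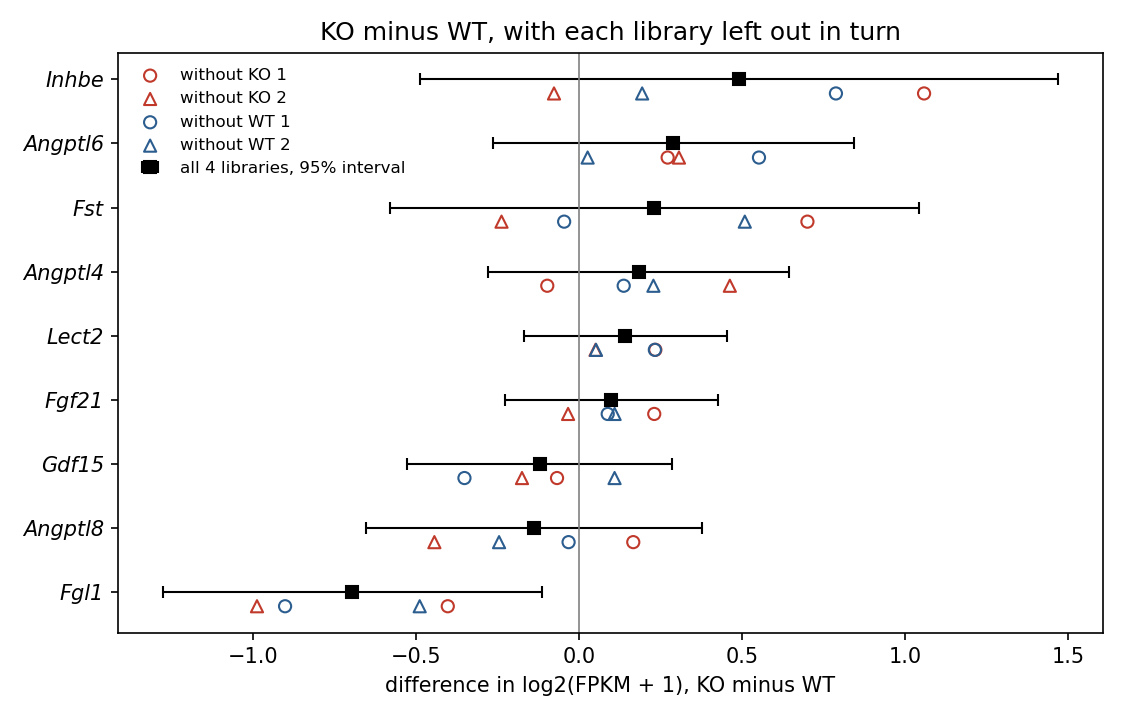
Difference in log2(FPKM + 1), KO minus WT, for each gene (squares, limma estimate with its 95% interval) and the same difference with 1 library left out (open symbols). The Fgl1 estimates all lie below 0, from -0.99 to -0.40, while those of Inhbe, Fst, Angptl4, Fgf21, Gdf15 and Angptl8 fall on both sides of 0.

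Fgl1 had the largest difference of the members. Fibrinogen-like protein 1 is secreted by hepatocytes, is induced in the acute phase response and binds the T cell checkpoint receptor LAG3. The gene (ENSMUSG00000031594) is on chromosome 8, minus strand, from 41191434 to 41215156 in GRCm38, the build also called mm10. Fgl1 stood at 320 FPKM in KO 1 and 481 FPKM in KO 2, against 551 FPKM in WT 1 and 734 FPKM in WT 2. Both KO libraries were below both WT libraries, and the gap between KO 2 and WT 1 was smaller than the gap within either genotype. The means were 400 ± 114 FPKM in KO and 643 ± 129 FPKM in WT (SD, n = 2 each). Its log2 difference was -0.70 (SE 0.24, 95% interval -1.28 to -0.12), with a limma p of 0.0263 unadjusted and 0.614 adjusted over all genes. Of the tested genes 1.49% differed by as much or more in either direction. Without KO 1 the difference was -0.40 and without WT 2 it was -0.49, against -0.90 without WT 1 and -0.99 without KO 2. By value 7 of 7 tested macrophage markers were higher in KO, and the groups stood apart for 5 of them, beside 18.3% of all tested genes in that direction. The part of macrophages in the Fgl1 result was not tested.

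Acute phase genes, like Fgl1, mostly had lower values in KO. All 14 listed acute phase and interleukin-6 response genes were tested, and 13 were lower and 1 was higher by value (median log2 difference -0.31). The groups stood apart for 6 of them, 5 lower and 1 higher, beside 38.1% of all tested genes, and 0 passed by limma. Saa3, a serum amyloid gene, stood at 131 and 77.4 FPKM in KO and 224 and 418 FPKM in WT (log2 difference -1.60, adjusted p = 0.519). Fga, the fibrinogen alpha chain, stood at 351 and 518 FPKM in KO and 482 and 972 FPKM in WT (-0.68, adjusted p = 0.724), so its groups overlapped. The median of this list was -0.11 without WT 2 and -0.43 without WT 1. Lag3, the receptor of FGL1 on T cells, stood at 0.131 and 0.0989 FPKM in KO and 0.122 and 0.145 FPKM in WT, and of 5 lymphocyte and leukocyte markers Cd3d, Cd79a and Nkg7 were listed at 0 in all 4 libraries. Cd3e had 0.191 FPKM in KO 2 and was listed at 0 in the other 3, and the leukocyte gene Ptprc stood at 0.886 and 0.516 FPKM in KO and 0.343 and 0.542 FPKM in WT. The 3 tested genes whose values over the 4 libraries were most like those of Fgl1 were the mitochondrial carrier gene Slc25a47, the interferon-induced gene Rsad2 and the cysteine dioxygenase gene Cdo1. Their root mean square differences from Fgl1 in centred log2(FPKM + 1) were 0.03, 0.05 and 0.05. Slc25a47 stood at 13.9 and 21.4 FPKM in KO and 24.5 and 34.7 FPKM in WT.

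The angiopoietin-like genes overlapped between the genotypes, or nearly did. Angptl4 (chromosome 17), an inhibitor of lipoprotein lipase that PPAR-alpha and hypoxia induce, stood at 67.2 FPKM in KO 1 and 45.2 FPKM in KO 2, against 47.0 and 50.1 FPKM in WT 1 and WT 2. KO 1 alone was high, KO 2 was the lowest of the 4, and the groups overlapped. That gave a log2 difference of 0.18 (SE 0.19, 95% interval -0.28 to 0.65, limma adjusted p = 0.847). It was 0.46 without KO 2 and -0.10 without KO 1. KO 1 was also the library highest in the summed endothelial and stellate markers given above, and their part in the Angptl4 value was not tested.

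Angptl8, an inhibitor of lipoprotein lipase that is induced by feeding, stood at 24.8 FPKM in KO 1 and 38.4 FPKM in KO 2, against 36.9 and 31.7 FPKM in WT 1 and WT 2. The KO libraries were the lowest and the highest of the 4. The limma log2 difference of -0.14 (SE 0.21, 95% interval -0.65 to 0.38, adjusted p = 0.912) was 0.17 without KO 1 and -0.44 without KO 2. Angptl8 lies within Dock6, a gene on the opposite strand of chromosome 9, with no shared exonic base. Angptl6, first described as an angiopoietin-related growth factor, stood at 2.25 and 2.18 FPKM in KO, against 2.16 and 1.19 FPKM in WT. WT 2 was low and the other 3 libraries were nearly equal, so the groups stood apart only by the small gap between KO 2 and WT 1. The log2 difference of Angptl6 was 0.29 (SE 0.23, 95% interval -0.27 to 0.84, adjusted p = 0.813), and it was 0.03 without WT 2 and 0.55 without WT 1. At an estimated 27 to 53 fragments a library it was thinly counted. It also shares 265 of its 1582 exonic bases with A230050P20Rik on the opposite strand, which stood at 51.9 to 68.5 FPKM, and the strand setting of the counting is not given.

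Genes for the lipases and cofactors that these proteins act on were mostly a little lower by value in KO. Of 14 listed genes of the angiopoietin-like family and of lipase control, 9 were tested, 3 of them higher and 6 lower by value (median log2 difference -0.10). The groups stood apart for 5, all lower in KO, beside 19.8% of all tested genes in that direction and 38.1% in either, and 0 passed by limma. The list's median was -0.16 without KO 1 and -0.04 without WT 2. Lipc, the hepatic lipase, stood at 71.2 and 91.6 FPKM in KO and 96.3 and 110 FPKM in WT (-0.35, adjusted p = 0.687), and Apoc3, an apolipoprotein that slows triglyceride clearance, at 1271 and 1488 FPKM in KO and 1564 and 1801 FPKM in WT (-0.29, adjusted p = 0.750). Gpihbp1, the endothelial anchor of lipoprotein lipase, stood at 4.26 and 1.78 FPKM in KO and 2.13 and 1.39 FPKM in WT (0.48, adjusted p = 0.793). It was highest in KO 1, as the summed endothelial markers were. Angptl1, Angptl7 and Angpt1 were listed at 0 in all 4 libraries.

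Fgf21, Inhbe, Fst and Gdf15 have each been linked to cell stress. The first 3 of them, with Angptl8 and Lect2, were highest in KO 2, whereas Gdf15 was highest in WT 2. Whether stress plays a part in these values was not tested. The integrated stress response lets ATF4, often with a C/EBP factor, bind amino acid response elements in the promoters of its targets. RefSeq start-site windows of 250 bases before to 50 after the start (GRCm38.p6) were given for 6 members, 7 windows in all, and not for Angptl4, Fgl1 or Fst. The core TGATGNAA, searched on both strands, was in the windows of 3 of the 6 genes, Fgf21, Angptl8 and Inhbe, and in 3.97% of all 32851 windows. The 250 bases before the start of these 3 genes are shown because they hold that core, which stands in capitals (written as TTGCATCA where it lies on the opposite strand). They lie at chr7:45615491-45615740 on the minus strand (Fgf21), chr9:21835260-21835509 on the plus strand (Angptl8) and chr10:127351849-127352098 on the minus strand (Inhbe).
Fgf21: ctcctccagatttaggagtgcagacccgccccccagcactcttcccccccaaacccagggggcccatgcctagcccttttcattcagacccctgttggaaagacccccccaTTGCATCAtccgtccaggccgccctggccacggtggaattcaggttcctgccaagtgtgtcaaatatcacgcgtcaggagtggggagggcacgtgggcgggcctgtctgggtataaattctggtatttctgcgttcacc
Angptl8: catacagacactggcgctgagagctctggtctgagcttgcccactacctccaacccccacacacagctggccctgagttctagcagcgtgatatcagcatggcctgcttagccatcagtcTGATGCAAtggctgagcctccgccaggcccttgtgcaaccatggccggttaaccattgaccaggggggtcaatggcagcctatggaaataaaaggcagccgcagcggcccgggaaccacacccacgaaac
Inhbe: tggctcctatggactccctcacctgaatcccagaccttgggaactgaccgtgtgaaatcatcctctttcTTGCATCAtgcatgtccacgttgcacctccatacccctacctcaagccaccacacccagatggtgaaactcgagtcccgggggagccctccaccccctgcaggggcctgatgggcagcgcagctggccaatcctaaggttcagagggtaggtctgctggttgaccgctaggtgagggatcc
The core spans bases -139 to -132 before the start of Fgf21, -130 to -123 of Angptl8 and -181 to -174 of Inhbe. The RefSeq start of Inhbe lies inside the longer gene model of GENCODE M21. The hypoxia element core ACGTG was in windows of 3 of the 6 genes, Fgf21, Gdf15 and Inhbe, and in 19.6% of all windows; in Fgf21 and Gdf15 it matched both strands at 1 site. TATAAA was in the window of Fgf21 and in 13.6% of all windows, and the PPAR direct repeat was in none of the 7 and in 0.0396% of all. None of these matches overlapped the TGATGNAA core. A match is a description of the letters and not of binding. The shares of members count genes and the shares of all count windows, so the 2 are not like for like. Several members were already known as ATF4 targets, so their TGATGNAA matches are not separate evidence of that.

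Fgf21, the fasting hormone of the liver, was close to the limit of detection in these cultures. It stood at 0.581 FPKM in KO 1 and 0.899 FPKM in KO 2, against 0.607 and 0.631 FPKM in WT 1 and WT 2. KO 2 was high and KO 1 was the lowest of the 4. Its log2 difference was 0.10 (SE 0.12, 95% interval -0.23 to 0.43), with a limma adjusted p of 0.873 over the 15152 genes with a value above 0. Those values rest on an estimated 7 fragments in KO 1 and 11 in KO 2, against 8 in each WT library. The exact Poisson 95% interval of the 11 fragments in KO 2 runs from 5.49 to 19.7 and holds the 3 other estimates. That interval covers the counting error of KO 2 alone, and no difference was detected at this depth. Of the FGF receptor genes, Fgfr4 stood at 28.2 and 32.5 FPKM in KO, against 25.5 and 23.4 FPKM in WT (log2 difference 0.30, limma adjusted p = 0.681), with both KO libraries higher. Fgfr2 stood at 1.54 and 1.34 FPKM in KO, against 2.29 and 3.71 FPKM in WT (-0.69, adjusted p = 0.587), with both KO libraries lower. Fgfr3 stood at 18.8 and 19.9 FPKM in KO and 18.95 and 20.1 FPKM in WT, and Fgfr1 at 7.58 and 4.73 FPKM in KO and 8.58 and 4.54 FPKM in WT. The co-receptor Klb, which FGF21 needs, stood at only 0.649 and 0.534 FPKM in KO and 0.688 and 0.724 FPKM in WT, and Kl was listed at 0 throughout. Of the 10 listed receptor and partner genes 4 were tested, and 0 passed by limma.

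Inhbe, which encodes the subunit of activin E, was the member with the widest spread. It stood at 2.60 FPKM in KO 1 and 6.90 FPKM in KO 2, against 3.66 and 2.09 FPKM in WT 1 and WT 2. KO 2 was the highest of the 4 and KO 1 lay between the WT libraries. The estimated log2 difference of 0.49 (SE 0.40, 95% interval -0.49 to 1.47, limma adjusted p = 0.817) was 1.06 without KO 1, 0.79 without WT 1 and 0.19 without WT 2, but -0.08 without KO 2. The gap between KO 2 and KO 1 was 1.14 on the log2 scale, and 0.586% of tested genes had a KO gap as large. The tested genes most like Inhbe over the 4 libraries were the pantetheinase gene Vnn1, Trim46 and Exph5, with root mean square differences of 0.09, 0.11 and 0.11. Vnn1 stood at 4.65 and 9.91 FPKM in KO and 5.33 and 3.63 FPKM in WT.

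Fst (chromosome 13), the gene of the activin-binding protein follistatin, followed the same split within KO. It stood at 27.0 FPKM in KO 1 and 52.7 FPKM in KO 2, against 26.3 and 39.1 FPKM in WT 1 and WT 2. The first library of each genotype was low, KO 2 was high, and the groups overlapped. The log2 difference was 0.23 (SE 0.33, 95% interval -0.58 to 1.04, adjusted p = 0.904). It was 0.70 without KO 1 and 0.51 without WT 2, but -0.24 without KO 2 and -0.05 without WT 1. In the rest of the activin axis, 11 of 16 listed genes were tested, 5 higher and 6 lower by value (median log2 difference -0.01). The groups stood apart for 3, all higher in KO, beside 18.3% of all tested genes in that direction and 38.1% in either, and 0 passed by limma. Inhba, the activin A subunit, stood at 5.14 and 7.25 FPKM in KO, against 4.14 and 4.26 FPKM in WT (0.45, adjusted p = 0.681). Smad7, an inhibitor of the pathway that the pathway itself induces, stood at 4.83 and 3.96 FPKM in KO, against 3.08 and 2.45 FPKM in WT (0.52, adjusted p = 0.605). The receptor gene Acvr1 stood at 7.75 and 9.74 FPKM in KO, against 7.13 and 7.12 FPKM in WT (0.25, adjusted p = 0.741), and the receptor gene Acvr2a differed by -0.09. Of the related subunits, Inhbc (activin C) stood at 2.13 and 4.70 FPKM in KO and 3.002 and 3.24 FPKM in WT, highest in KO 2 like Inhbe, whereas Inhbb (activin B) stood at 5.29 and 2.73 FPKM in KO and 4.14 and 3.37 FPKM in WT, lowest in KO 2.

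Gdf15 (chromosome 8), a stress-induced hormone that acts on the hindbrain to curb appetite, was abundant in every library. It stood at 70.6 FPKM in KO 1 and 76.2 FPKM in KO 2, against 68.0 and 93.9 FPKM in WT 1 and WT 2. WT 2 was high and both KO libraries lay between the WT libraries. Between the genotypes the log2 difference was -0.12 (SE 0.17, 95% interval -0.53 to 0.28, adjusted p = 0.899), and it was 0.11 without WT 2 and -0.35 without WT 1. Its receptor genes Gfral and Ret were listed at 0 in all 4 libraries.

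Lect2 (chromosome 13), a leukocyte chemotactic hepatokine that binds the receptors MET and TIE1, varied little among the libraries. It stood at 13.3 and 15.2 FPKM in KO, against 13.7 and 11.9 FPKM in WT, and the groups overlapped. The limma estimate was 0.14 on the log2 scale (SE 0.13, 95% interval -0.17 to 0.45, adjusted p = 0.826), and it was 0.05 both without KO 2 and without WT 2, against 0.23 without KO 1 or without WT 1. Met stood at 43.0 and 38.2 FPKM in KO and 39.4 and 35.2 FPKM in WT (0.12, adjusted p = 0.829). Tie1, an endothelial receptor, stood at 2.58 and 1.13 FPKM in KO and 1.56 and 1.86 FPKM in WT (0.03, adjusted p = 0.987), highest in KO 1 as the summed endothelial markers were.

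KO 2 was the highest of the 4 libraries for 5 of 9 members, Angptl8, Lect2, Fst, Inhbe and the barely detected Fgf21. Of the 8 tested members 4 were highest there, beside 26.3% of all tested genes. KO 1 was the highest for 2 members, WT 2 for 2 and WT 1 for 0. The lead of KO 2 was small for Angptl8 (38.4 against 36.9 FPKM in WT 1) and Lect2 (15.2 against 13.7 FPKM in WT 1). KO 2 also had the largest summed FPKM over all genes, 546967, against 498348 to 521221 in the other libraries. Of the 14 tested genes of the integrated stress response list, 9 were also highest in KO 2. Among them Atf3, a stress-induced transcription factor, stood at 28.0 and 63.2 FPKM in KO and 30.8 and 41.0 FPKM in WT, and Ddit3, which encodes CHOP, at 27.9 and 44.9 FPKM in KO and 28.7 and 28.5 FPKM in WT. Atf4 itself stood at 152 and 171 FPKM in KO and 155 and 163 FPKM in WT. Over this list 9 genes were higher and 5 lower by value in KO (median log2 difference 0.17). The groups stood apart for 3 higher and 1 lower gene, 4 of 14 beside 38.1% of all tested genes, and 0 passed by limma. Ppp1r15a, a phosphatase subunit that ends the response, stood at 31.4 and 33.0 FPKM in KO, against 21.7 and 22.7 FPKM in WT (0.52, adjusted p = 0.487), and Trib3, an ATF4 target, at 65.3 and 78.3 FPKM in KO, against 58.8 and 46.6 FPKM in WT (0.44, adjusted p = 0.614). The median of the list was -0.07 without KO 2 and 0.06 without WT 1. A part of the stress response in the KO 2 values of the members was not tested.

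**Figure D3:**
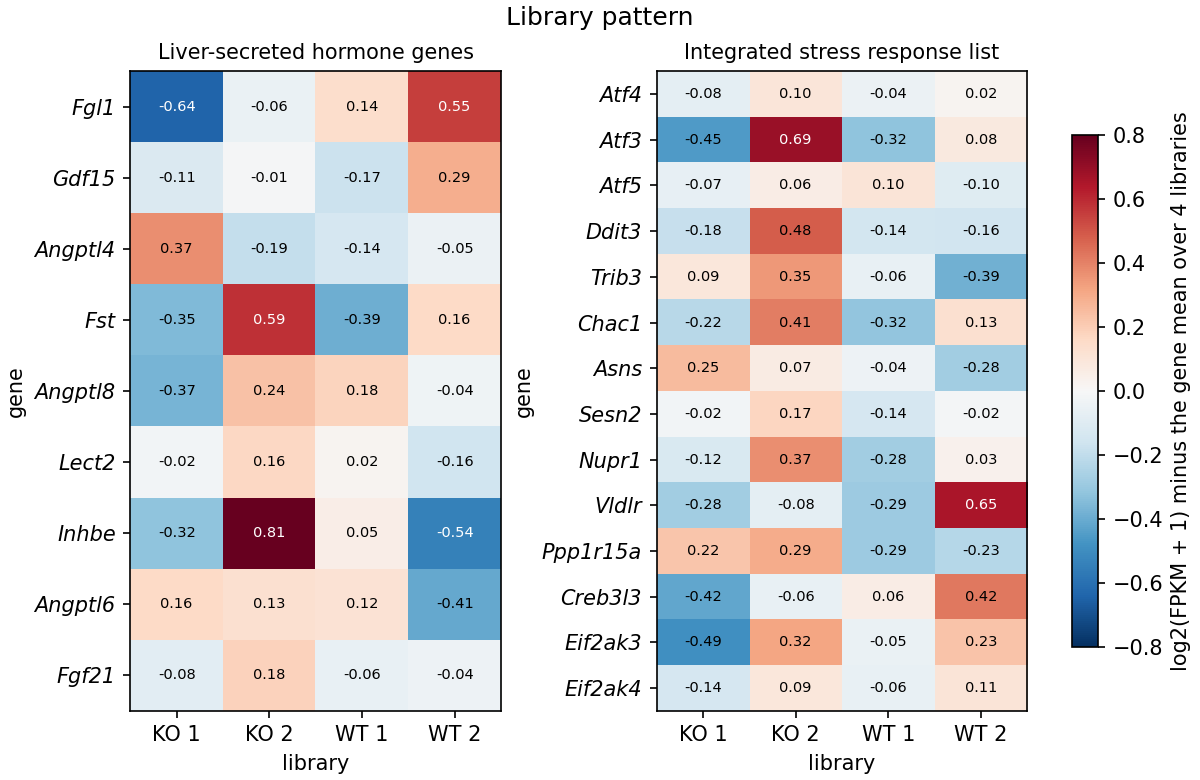
Log2(FPKM + 1) of each gene in each library minus the gene's mean over the 4 libraries, for the 9 hormone genes (left) and the 14 integrated stress response genes (right); red is above and blue below the gene's mean. The KO 2 column is highest for 5 hormone genes and 9 stress genes, and it lies well above the KO 1 column in Inhbe, Fst, Angptl8 and Fgl1 and well below it in Angptl4.

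Lists of other regulators of these hormones leaned in different directions by value. Of 13 listed PPAR-alpha genes 12 were tested, 10 lower and 2 higher by value in KO (median log2 difference -0.31). The groups stood apart for 6, all lower, beside 19.8% of all tested genes in that direction and 38.1% in either. The median was -0.53 without KO 2 and -0.34 without WT 1, against -0.26 without KO 1 and -0.21 without WT 2. The largest difference in that list was in the other direction: Cyp4a14, a fatty acid hydroxylase gene, stood at 3.42 and 19.4 FPKM in KO, against 1.27 and 4.44 FPKM in WT (1.44, adjusted p = 0.724), with overlapping groups. Ppara itself stood at 15.2 and 16.4 FPKM in KO, against 21.4 and 28.0 FPKM in WT (-0.60, adjusted p = 0.541), and Creb3l3, a liver transcription factor that induces Fgf21, at 19.4 and 25.1 FPKM in KO, against 27.3 and 35.4 FPKM in WT (-0.48, adjusted p = 0.652). Creb3l3 is counted in both the PPAR-alpha list and the integrated stress response list. Fgf21 and Angptl4, both known PPAR-alpha targets, had the log2 differences of 0.10 and 0.18 given above. Of 12 hypoxia genes 11 were tested, 8 lower and 3 higher by value, with a median of -0.51. Non-overlapping groups were found for 8 lower and 2 higher of them, beside 38.1% of all tested genes, and Bnip3, a mitophagy receptor gene, stood at 32.1 and 29.1 FPKM in KO, against 75.0 and 115 FPKM in WT (-1.58, adjusted p = 0.311). Of 10 genes of the lipogenic factors ChREBP and SREBP1, which induce Angptl8, 9 were tested, 6 higher and 3 lower, with a median of 0.19 that was -0.14 without KO 1 and 0.41 without KO 2. Its groups stood apart for 2 higher and 2 lower genes, beside the same 38.1%. The liver pyruvate kinase gene Pklr stood at 110 and 123 FPKM in KO, against 69.7 and 80.4 FPKM in WT (0.63, adjusted p = 0.487), while Txnip, a ChREBP target that binds thioredoxin, stood at 4.37 and 2.34 FPKM in KO, against 5.01 and 6.17 FPKM in WT (-0.63, adjusted p = 0.682). By limma 0 genes of these 3 lists passed.

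**Figure D4:**
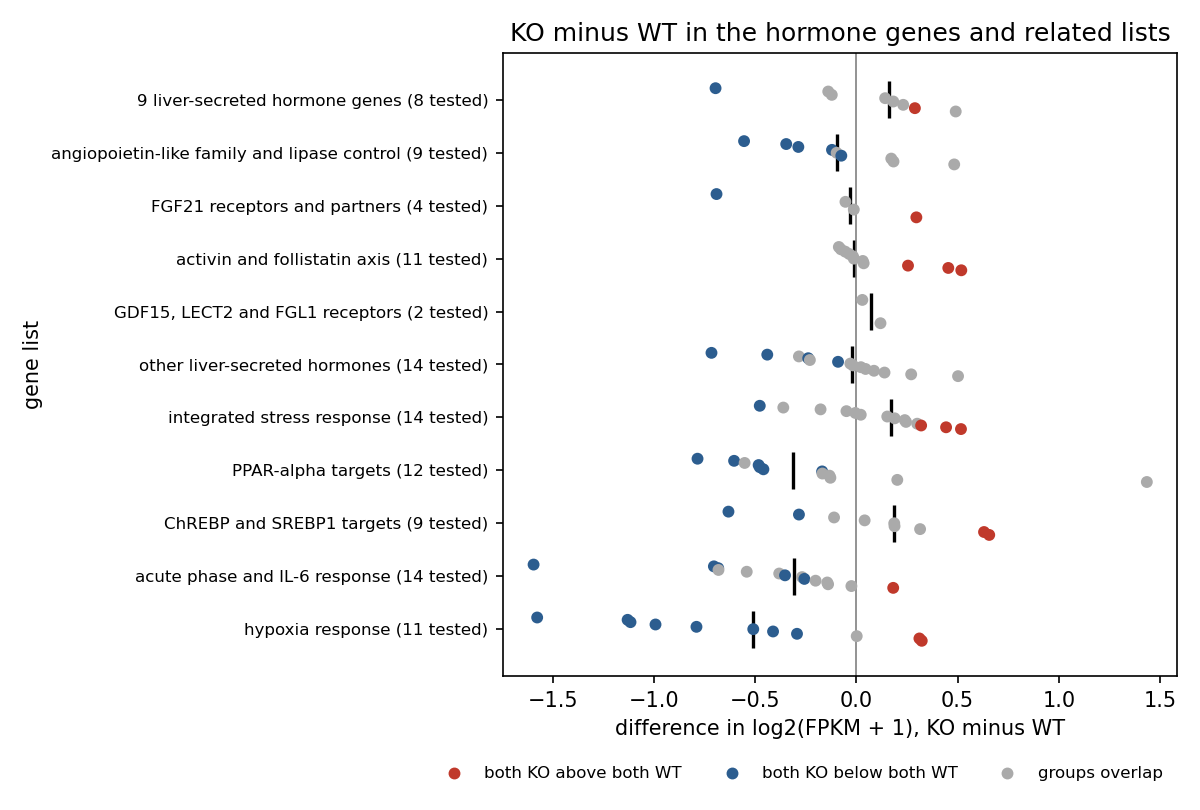
Difference in log2(FPKM + 1), KO minus WT, of every tested gene of the hormone set and of the 10 related lists; each point is 1 gene, colour gives whether the 2 KO and 2 WT libraries overlap, and the black bar is the list's median. Medians run from -0.51 (hypoxia) to 0.19 (ChREBP and SREBP1), with 0.16 for the 8 tested hormone genes.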

How the data were processed

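Messenger RNA was sequenced in 4 libraries of primary mouse hepatocytes with a stranded kit, per the labels' protocols. Tools named in the submitters' processing notes are Cuffdiff 2.2.1, Cufflinks and STAR 2.5.0, with the build mm10. The authors deposited 1 table with 1 value per gene and library, read as FPKM from those tools and from the values; its header gives no unit. Depth was estimated from the lowest step of the values in 3057 genes with 1 transcript of at least 1000 bases and an assumed fragment length of 200 bases, and is approximate; intervals on it cover counting error only. Symbols and positions came from GENCODE M21 (22061 of 22079 identifiers matched), promoter windows from RefSeq.

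Differences were fitted with limma 3.58.1 in R 4.3.3 (intensity trend, genotype as the only term) on log2(FPKM + 1) over genes averaging 1 FPKM or more, with Benjamini-Hochberg adjustment over all of them at 0.05. Fold changes on that scale understate low genes. Fgf21 and Prom1, under the filter, were read from the same model on all genes above 0. P-values measure only the spread between these libraries. The fit was tested on simulated data with independent normal noise at the fitted spreads, which cannot show how it handles patterns shared by many genes of a library. The members and lists were chosen with earlier results of these data known, and lists are described by counts and medians with no test of their own. The text names the members, their receptors and up to 4 tested genes of a list with the largest differences. Hnf4a, Tat, Apob, Inhbb, Inhbc, Atf3, Ddit3, Atf4, Manf and Smoc1 were named after their values were seen. Pattern likeness was taken for the 2 tested members with the largest differences. Alternatives were another pseudocount, other filters, 2 rescalings, no trend, a replicate block and leaving out each library.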

Additional observations from a re-analysis of the deposited data

How the results depend on the processing

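No member passed the adjusted threshold under any of the 11 alternatives, and the lowest adjusted p of a member was 0.155, for Fgl1 with the replicate block. Over all genes 0 passed with 4 libraries and 0 to 8 with 1 left out: 8 without WT 1, 5 without KO 1 and 0 without KO 2 or WT 2. With the other pseudocount, filters and rescalings and without the trend, 0 genes passed and every member tested in that setting kept its direction; Fgf21, Angptl6 and Inhbe have no value under the filter at 5 FPKM, and Fgf21 was fitted with no filter throughout. Leaving out 1 library turned the direction of 6 members. The log2 difference then ran from -0.034 to 0.23 for Fgf21, from -0.35 to 0.11 for Gdf15, from -0.10 to 0.46 for Angptl4, from -0.44 to 0.17 for Angptl8, from -0.24 to 0.70 for Fst and from -0.077 to 1.06 for Inhbe. It kept its sign for Fgl1 (-0.99 to -0.40), Angptl6 (0.03 to 0.55) and Lect2 (0.05 to 0.23). The cause was not tested. With the replicate block 0 genes passed and 1054 had an unadjusted p under 0.05, against 759 without it. The labels do not say that a number marks shared animals or days, and the deviations of KO 1 and WT 1 correlated at 0.151 over 10407 genes, so the numbers were not taken as pairs. Depth limits Fgf21 and Angptl6 most.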

Other observations

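Further liver-secreted hormones, outside the 9 genes, were close to evenly split by value. Of 15 listed, 14 were tested, 6 higher and 8 lower in KO (median log2 difference -0.024). The groups stood apart for 4 of the 14, Igfbp1, Tsku, Smoc1 and Manf, all lower in KO. Beside this, 38.1% of all tested genes stood apart in either direction and 19.8% were lower in KO. By limma 0 passed, and 2 had an unadjusted p under 0.05, beside 7.29% of all. Igfbp1, an insulin-repressed binding protein of insulin-like growth factors, stood at 209 and 129 FPKM in KO, against 217 and 337 FPKM in WT (log2 difference -0.72, adjusted p = 0.682). Tsku, which encodes the hepatokine tsukushi, stood at 131 and 122 FPKM in KO, against 189 and 156 FPKM in WT (-0.44, adjusted p = 0.570). Gpnmb, a shed glycoprotein, stood at 51.4 and 88.1 FPKM in KO, against 39.4 and 56.5 FPKM in WT (0.50, adjusted p = 0.742), with overlapping groups and its highest value in KO 2. Selenop, the selenium carrier of plasma, stood at 2990 and 4244 FPKM in KO and 3743 and 5027 FPKM in WT (-0.28, adjusted p = 0.828), lowest in KO 1 and highest in WT 2 as Fgl1 was.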
